A study of Homo sapiens with 4 samples.

Results

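The NRF2 pathway and redox genes described here are 31 named genes out of 62710 in the expression table of a study of periplocymarin in HGC27 and MKN45 gastric cancer cells. They were listed by symbol as known members of the pathway, with earlier results of these data known, and no value of theirs entered the rule. They comprise the NRF2 transcription factor gene NFE2L2 and 3 of its regulators, and 27 enzymes and other proteins of antioxidant defence and detoxification. NRF2 is held at a low level by KEAP1, an adaptor that hands it to a CUL3 ubiquitin ligase. When KEAP1 is modified by electrophiles or oxidants, NRF2 accumulates, pairs with small MAF proteins such as MAFG, and binds antioxidant response elements, where BACH1 competes with it as a repressor. Its classical targets make and recycle glutathione and thioredoxin, supply NADPH, and reduce or conjugate quinones and carbonyls, and several of them are often high in epithelial tumours.

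Each line was cultured for 24 h in 0.3 µM periplocymarin, a plant cardiac glycoside that blocks the Na,K-ATPase, or in 0.1% DMSO, the vehicle. HGC27 and MKN45 are established lines, from an undifferentiated and a poorly differentiated gastric cancer, and both are labelled as gastric cancer cells. Poly(A) RNA was sequenced from 1 library per line and treatment, so there were 4 libraries and no replicate within a line. Levels are FPKM, read abundance scaled for gene length and library size. Comparison between genes is rough, because the gene length recovered from the values can exceed the longest coding transcript. For NFE2L2 these lengths were 14975 and 2853 bases. In each pair of values below the vehicle library comes first and the treated library second.

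The recovered reads came to between 24800682 and 36424628 per library. MKN45 carried all 7 epithelial markers at 1 FPKM or more in both libraries, summing to 1683 FPKM in vehicle and 2978 FPKM in treated cells, and none of 6 mesenchymal markers. HGC27 carried 5 of 6 mesenchymal markers, summing to 611 and 796 FPKM, while the epithelial markers summed to 8.34 FPKM in vehicle and 0.479 FPKM in treated cells. ESRP1 alone made up most of the vehicle sum, at 7.64 FPKM, and was at 0.0348 FPKM in treated HGC27. Of 8 gastric and intestinal markers 7 were at 1 FPKM or more in each MKN45 library and 1, MUC1, in each HGC27 library. Of 5 leukocyte markers none reached 1 FPKM in HGC27 and 2 did in both MKN45 libraries, LYZ at 161 and 125 FPKM and CD68 at 1.07 and 2.46 FPKM, with sums of 163 and 127 FPKM. The pan-leukocyte marker PTPRC was at 0.0221 FPKM in vehicle HGC27 and at 0 in the other 3 libraries, and no endothelial marker reached 1 FPKM in any library. These marker levels differ between the lines along with the redox genes below, and their part in those differences was not tested.

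The main question was how these genes differed after the glycoside. A gene entered the test over both lines when its mean over the 4 libraries reached 1 FPKM and 10 reads, which 30 of the 31 genes met. OSGIN1, an oxidative stress growth inhibitor, missed it with 1.24 and 0.886 FPKM in vehicle and treated HGC27 and 1.01 and 0.656 FPKM in MKN45. The genes did not move as 1 block. In the test over both lines (limma with cell line as a block, Benjamini-Hochberg adjusted over 12353 genes) 1 of the 30 rose, TXNRD1, and 1 fell, PIR, while 28 did not pass. Over all tested genes 3.43% rose and 3.17% fell, and 6.61% passed in either direction, so 1 in each direction is close to the background. At an unadjusted p under 0.05 there were 10 of the 30, beside 3511 of all 12353 genes. The median fitted difference was -0.026 over the 30 genes and 0.062 over all tested genes. These are differences of log2(FPKM + 1), a scale on which low genes show less than their full change. In bulk RNA, fewer cells making a transcript and less of it per cell cannot be told apart.

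**Figure D1:**
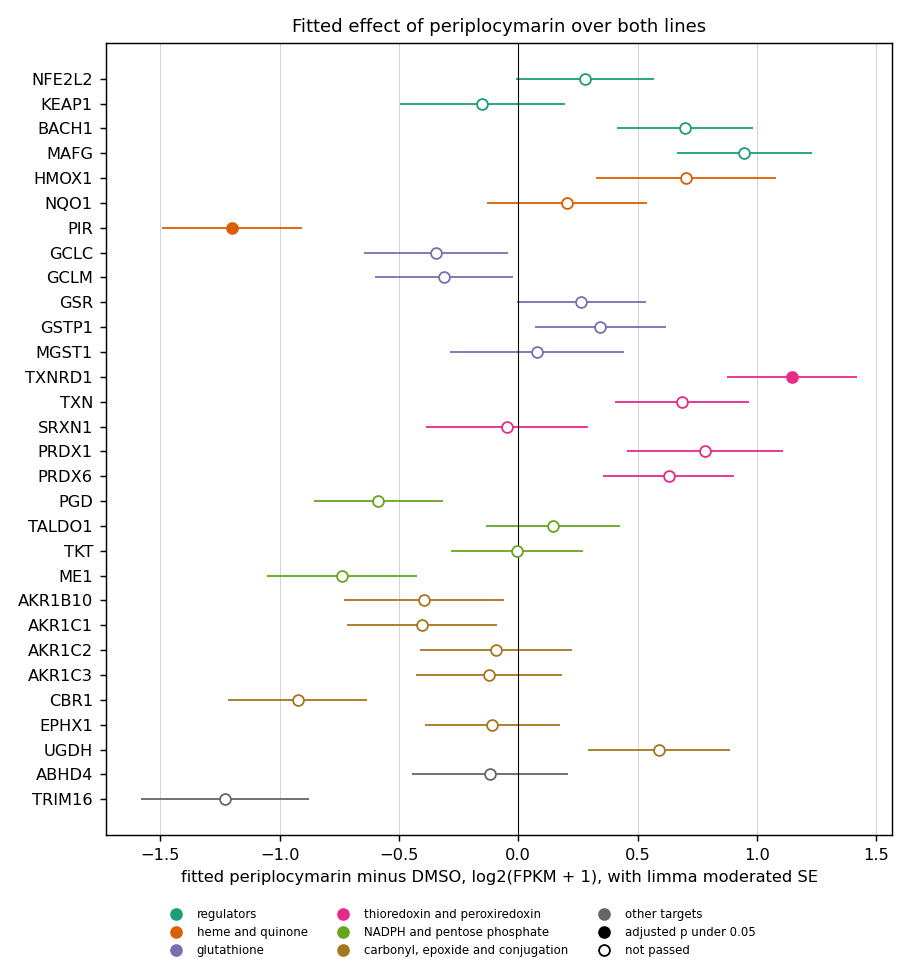
Fitted periplocymarin minus DMSO difference on the log2(FPKM + 1) scale (x axis) for the 30 tested genes (y axis), coloured by role; points are limma coefficients over both lines, bars are moderated standard errors, and filled points passed at an adjusted p under 0.05. TXNRD1 at 1.15 and PIR at -1.20 are the filled points.

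TXNRD1 encodes the cytosolic thioredoxin reductase, a selenoenzyme that uses NADPH to keep thioredoxin reduced. Its levels were 31.3 and 64.3 FPKM for the HGC27 pair and 64.5 and 158 FPKM for MKN45. It was higher in the treated library of each line, while the level of treated HGC27 only reached that of vehicle MKN45. It rose by 1.15 ± 0.27 (log2, limma moderated SE over 2 lines, adjusted p = 0.0406). The call was lost with quantile normalization, where the fitted difference was 0.71 (limma adjusted p = 0.122). Genes at a level of 10 FPKM or more in general stood higher after treatment. Of these, 19.0% in HGC27 and 13.9% in MKN45 were higher by at least 1 in log2(FPKM + 1), as TXNRD1 was. How much of the TXNRD1 difference goes with abundance was not tested. TXNRD1 lies on chromosome 12 from 104215779 to 104350305, plus strand (GRCh38, GENCODE 29), where EID3, RPL18AP3 and 1 antisense model overlap it, but none of the 50-base windows of its longest coding transcript occurs in a transcript of another gene.

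PIR encodes pirin, an iron-binding nuclear protein of the cupin family. Its levels were 5.43 and 2.37 FPKM for the HGC27 pair and 21.9 and 7.28 FPKM for MKN45, so the treated library was lower in each line. The fitted difference was -1.20 ± 0.30 (limma moderated SE, adjusted p = 0.0451), and PIR fell also with quantile normalization and with library totals alone. Neither TXNRD1 nor PIR passed when genes of any level were tested (limma adjusted p = 0.346 for both) or without the cell line term (0.837 and 0.879). In these settings 0 of 32364 and 0 of 12353 genes passed after treatment, so this loss is not particular to TXNRD1 and PIR. PIR lies on chromosome X from 15384799 to 15493564, minus strand, with BMX on the opposite strand. Both calls, that of TXNRD1 and that of PIR, sit just under the threshold of 0.05. The moderated SE draws mostly on other genes, with 8.53 prior degrees of freedom against 1 residual.

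The promoters of these genes were searched for the antioxidant response element core TGACNNNGC on both strands, because NRF2 is known to act through it. RefSeq promoters (GRCh38.p14) were matched for 26 of the 31 genes, with 36 start sites. HMOX1, GSR, PRDX1, PRDX6 and AKR1B10 had no entry. In the 250 bases before the start, 9 of the 36 promoters held these letters, in CBR1, EPHX1, GCLM, GSTP1, KEAP1, ME1, PGD and TXNRD1, against 10.9% of all 35116 promoters. The matches of EPHX1 and KEAP1 are not printed. Of the other enzymes with a match, GCLM, ME1, PGD and CBR1 were lower in the treated library of both lines, and GSTP1 was higher in both. The stretches below belong to TXNRD1, which rose and has a match before each of 2 start sites, and to these 5 enzymes. They are printed in the direction of the gene with the matched letters in capitals, at chr12:104215670-104215698 and chr12:104286920-104286948 (TXNRD1, plus strand), chr1:93909446-93909474 (GCLM, minus strand), chr6:83431170-83431198 (ME1, minus strand), chr1:10398853-10398881 (PGD, plus strand), chr21:36069855-36069883 (CBR1, plus strand) and chr11:67583736-67583764 (GSTP1, plus strand).
TXNRD1 upstream start: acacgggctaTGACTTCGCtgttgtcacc
TXNRD1 downstream start: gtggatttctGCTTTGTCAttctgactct
GCLM: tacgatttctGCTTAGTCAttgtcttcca
ME1: tctcctgccaTGACTCAGCgcttctcgca
PGD: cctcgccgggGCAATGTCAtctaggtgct
CBR1: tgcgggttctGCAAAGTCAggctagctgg
GSTP1: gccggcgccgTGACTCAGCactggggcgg
The ME1 and GSTP1 matches also contain TGACTCA, the AP-1 site TGAGTCA read on the other strand. That site is in 4 of the 36 promoters, those of BACH1, GSTP1, ME1 and OSGIN1, against 4.20% of all promoters. Among genes with the TGACNNNGC letters TXNRD1 rose, while none of the others passed, ME1 (-0.74) and GSTP1 (0.34) included. PIR, which fell, has no such letters in this window, which says only that about these 250 bases.

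Among the regulators none passed the test. NFE2L2, which encodes NRF2 itself, stood at 12.4 and 12.9 FPKM in vehicle and treated HGC27 and at 11.7 and 17.0 FPKM in MKN45. Its fitted difference was 0.28 ± 0.29 (limma moderated SE, adjusted p = 0.548). NRF2 is controlled mainly through its protein, which these data do not measure.

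KEAP1, which targets NRF2 for degradation, was higher in treated HGC27, at 48.5 against 34.3 FPKM, and lower in treated MKN45, at 6.31 against 11.6 FPKM. The libraries of each line thus went opposite ways, and with quantile normalization the HGC27 difference turned below 0. BACH1, the repressor, was at 6.73 and 10.4 FPKM for the HGC27 pair and 6.15 and 11.8 FPKM for MKN45. MAFG, the small MAF partner, was at 8.68 and 20.1 FPKM for the HGC27 pair and 14.1 and 24.8 FPKM for MKN45. Both had higher levels in the treated library of each line, with fitted differences of 0.70 ± 0.28 for BACH1 and 0.95 ± 0.28 for MAFG (limma moderated SE, adjusted p = 0.145 and 0.0693). MAFG passed with limma-voom on recovered reads and with a floor of 10 FPKM. It did not pass with quantile normalization, library totals alone or a pseudocount of 0.1.

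**Figure D2:**
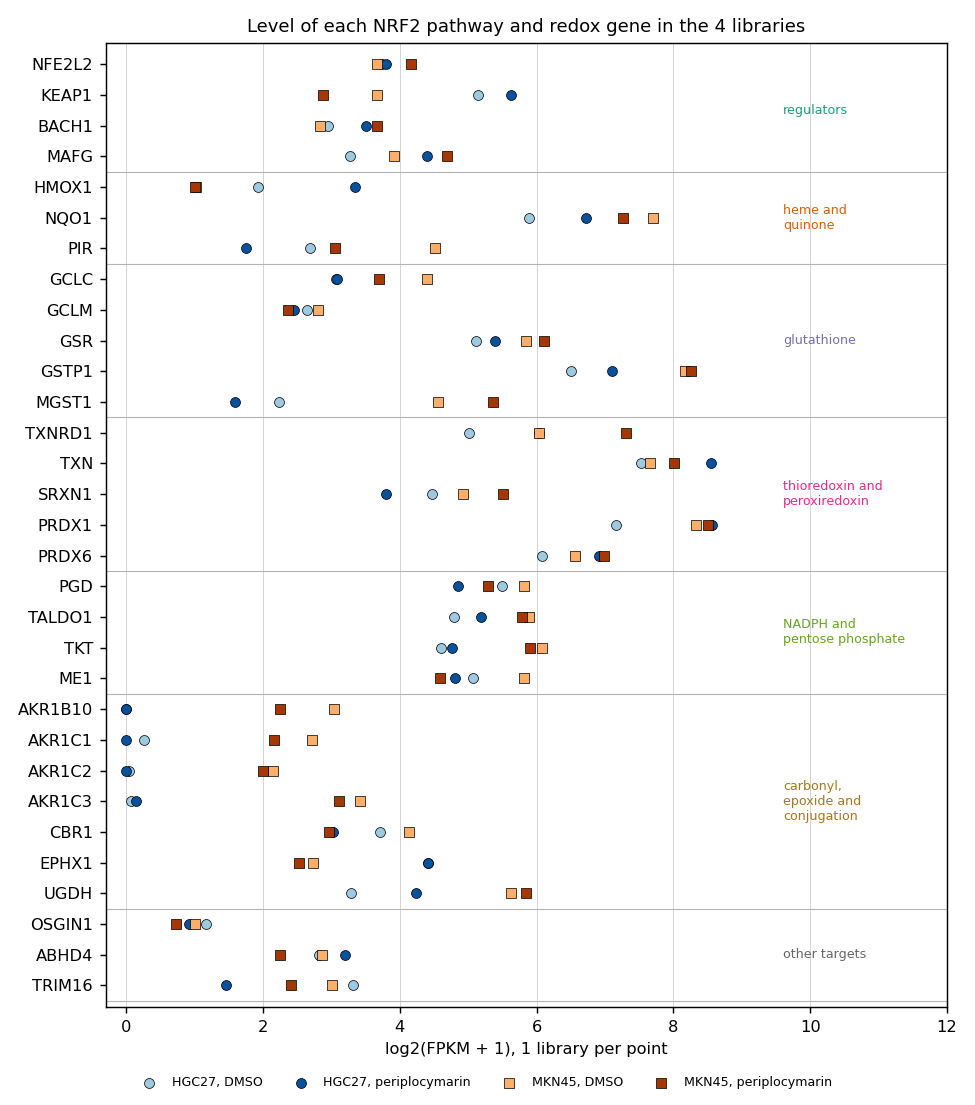
Level of each of the 31 genes (y axis, grouped by role) as log2(FPKM + 1) (x axis), 1 point per library with no error bars because each line and treatment had 1 library; circles are HGC27, squares MKN45, pale points DMSO and dark points periplocymarin. The AKR1 genes lie near 0 in HGC27 only, and KEAP1, EPHX1 and HMOX1 lie to the right in HGC27.

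The thioredoxin and peroxiredoxin genes had the largest upward median of the 7 role groups over both lines, 0.69 over 5 genes, and TXNRD1 was the 1 gene among them that rose. TXN, thioredoxin, the small protein that reduces disulfides, was at 183 and 372 FPKM for the HGC27 pair and 200.5 and 256 FPKM for MKN45. PRDX1, a peroxiredoxin that uses thioredoxin to reduce peroxides, was at 142 and 376 FPKM for the HGC27 pair and 322 and 362 FPKM for MKN45. PRDX6, a peroxiredoxin that relies on glutathione instead, was at 66.4 and 119 FPKM for the HGC27 pair and 93.6 and 126 FPKM for MKN45. All 3 were higher in the treated library of both lines, by more in HGC27, but none passed (limma adjusted p = 0.146 for TXN, 0.152 for PRDX1 and 0.166 for PRDX6). With library totals alone the PRDX1 difference in MKN45 turned below 0. Of the windows of PRDX1, 28.0% are shared with MMACHC, on the opposite strand, so part of its reads cannot be assigned without strand.

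These are among the most abundant transcripts, and abundant genes in general stood higher after treatment. In HGC27, the 294 genes whose mean reached 100 FPKM had a median difference of 0.52, against 0.11 over all 11821 measured genes. The differences of TXN (1.02) and PRDX1 (1.40) lay above that median. In MKN45, where the median over 334 such genes was 0.22, they were 0.35 and 0.17, which are on either side of it. How much of the peroxiredoxin differences goes with abundance was not tested.

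SRXN1, sulfiredoxin, which restores overoxidized peroxiredoxins, went against the other 4 in HGC27, while in MKN45 all 5 were higher. It was at 21.1 and 12.9 FPKM for the HGC27 pair and 29.5 and 44.4 FPKM for MKN45, lower in one line and higher in the other. Its windows are shared to 84.7% with an overlapping model on the same strand, so its value is uncertain.

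The glutathione genes showed no call. GCLC and GCLM encode the catalytic and modifier subunits of glutamate-cysteine ligase, the rate-limiting enzyme of glutathione synthesis and a standard NRF2 target. GCLC was at 7.41 and 7.43 FPKM for the HGC27 pair and 20.1 and 12.03 FPKM for MKN45. GCLM was at 5.26 and 4.50 FPKM for the HGC27 pair and 5.96 and 4.13 FPKM for MKN45. Neither was higher in a treated library beyond counting error, and the fitted differences were -0.35 ± 0.30 and -0.31 ± 0.29 (limma moderated SE, adjusted p = 0.476 and 0.502). GSR, glutathione reductase, was at 33.6 and 41.0 FPKM for the HGC27 pair and 56.7 and 67.8 FPKM for MKN45, and its small difference turned below 0 in the fit with library totals alone or quantile normalization. GSTP1, the pi-class glutathione transferase, was at 90.0 and 137 FPKM for the HGC27 pair and 287 and 306 FPKM for MKN45. It was the most abundant of the 5 in every library. MGST1, a microsomal glutathione transferase, was at 3.69 and 2.01 FPKM for the HGC27 pair and 22.7 and 40.1 FPKM for MKN45, again with opposite directions.

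Of the heme and quinone group, PIR, given above, fell, and the other two did not pass. HMOX1, heme oxygenase, which breaks down heme and is repressed by BACH1, was at 2.80 and 9.13 FPKM for the HGC27 pair and 1.04 and 1.02 FPKM for MKN45. Its treated to vehicle ratio in HGC27 was 3.27, the highest among the genes with more than 3 reads in both libraries of that line, and no difference was detectable in MKN45, where the libraries held 88 and 56 reads (95% counting interval of the log2 ratio -0.53 to 0.48). NQO1, the quinone reductase often used as a readout of NRF2, was at 58.1 and 105 FPKM for the HGC27 pair and 207 and 153 FPKM for MKN45. The lines went opposite ways, and the fitted difference of 0.20 ± 0.33 did not pass (limma moderated SE, adjusted p = 0.721), and it turned to -0.20 with quantile normalization and -0.080 with library totals alone. Of its windows 17.1% are shared with an antisense model.

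The NADPH and pentose phosphate genes included no call. PGD, the 6-phosphogluconate dehydrogenase that makes NADPH, was at 44.2 and 27.8 FPKM for the HGC27 pair and 55.2 and 38.1 FPKM for MKN45. ME1, the cytosolic malic enzyme, was at 32.6 and 27.1 FPKM for the HGC27 pair and 55.2 and 23.1 FPKM for MKN45. Both were lower in the treated library of each line, with fitted differences of -0.59 ± 0.27 and -0.74 ± 0.31 (limma moderated SE, adjusted p = 0.190 and 0.158), and both fell with quantile normalization or library totals alone. TALDO1, transaldolase, was at 26.8 and 35.4 FPKM for the HGC27 pair and 58.2 and 54.3 FPKM for MKN45. TKT, transketolase, was at 23.3 and 26.3 FPKM for the HGC27 pair and 66.6 and 58.9 FPKM for MKN45. These enzymes of the non-oxidative branch moved little, by at most 0.39 on the log2 scale in either line.

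Of the carbonyl, epoxide and conjugation enzymes, none passed after treatment. CBR1, a carbonyl reductase, was at 12.1 and 7.16 FPKM for the HGC27 pair and 16.6 and 6.85 FPKM for MKN45, lower in both, with a fitted difference of -0.92 ± 0.29 (limma moderated SE, adjusted p = 0.0789). It fell with quantile normalization, library totals alone or a floor of 10 FPKM, and did not pass with a pseudocount of 0.1 or limma-voom. An antisense model shares 22.1% of its windows. UGDH, which makes UDP-glucuronate for conjugation, was at 8.73 and 17.9 FPKM for the HGC27 pair and 48.3 and 56.6 FPKM for MKN45. EPHX1, microsomal epoxide hydrolase, stayed at 20.2 FPKM in both HGC27 libraries and was at 5.68 and 4.74 FPKM in MKN45.

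The aldo-keto reductases, which reduce aldehydes and steroids and are among the strongest NRF2 targets in human cells, were nearly silent in HGC27. AKR1B10 was listed at 0 in both HGC27 libraries and was at 7.24 and 3.76 FPKM in MKN45. AKR1C1 had 55 reads in vehicle and 0 in treated HGC27, at least 13.4-fold lower against a limit of 3 reads per library, and was at 5.56 and 3.47 FPKM in MKN45. AKR1C2 had 6 and 0 reads in HGC27 and was at 3.41 and 2.997 FPKM in MKN45, and AKR1C3 had 7 and 10 reads in HGC27 and was at 9.70 and 7.61 FPKM in MKN45. All 4 were lower in treated than in vehicle MKN45, except that AKR1C2 turned above 0 with quantile normalization, and none had a call in the test over both lines. AKR1C1 and AKR1C2 are near-identical, with 50.8% of the windows of AKR1C2 found in AKR1C1, so reads could be split between them by the counting.

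ABHD4, a lipid hydrolase, was at 6.05 and 8.21 FPKM for the HGC27 pair and 6.29 and 3.74 FPKM for MKN45. TRIM16, a tripartite motif protein, was at 8.92 and 1.74 FPKM for the HGC27 pair and 7.07 and 4.32 FPKM for MKN45. TRIM16 had the largest decrease among the 27 genes measured in HGC27, and its fitted difference of -1.23 ± 0.35 missed the threshold (limma moderated SE, adjusted p = 0.0634). It passed with library totals alone, a pseudocount of 0.1 or limma-voom, and not with quantile normalization. Its value is uncertain, since 66.7% of its windows occur in other transcripts, TRIM16L among them.

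Within a line there is no test, and a difference of at least 1 in log2(FPKM + 1) was used as a description. Of 27 genes measured in HGC27 (mean of the pair 1 FPKM or more), 5 were higher by that much, MAFG, HMOX1, TXNRD1, TXN and PRDX1, and 1 was lower, TRIM16. The added 1 in log2(FPKM + 1) matters here, since by the plain ratio of FPKM UGDH (2.05) was also at least 2-fold higher and PIR (0.436) also at least 2-fold lower. Over all 11821 genes measured in HGC27, 9.72% were higher and 10.4% lower by that much. Of 30 genes measured in MKN45, 1 was higher, TXNRD1, and 3 were lower, PIR, ME1 and CBR1, against 8.21% and 8.94% of 11895 genes. For HGC27 the genes had a median of 0.28 and for MKN45 of -0.16, while all measured genes had 0.11 and 0.07. Among genes at a level of 10 FPKM or more the medians lay close in HGC27, 0.49 over 17 of the listed genes and 0.48 over all 4181, where 4 of the 17 and 19.0% of the 4181 were higher by at least 1. Lower by at least 1 in HGC27 were 0 of the 17 and 3.59% of the 4181. In MKN45 the medians were 0.17 over 19 genes and 0.35 over 4390. There 1 of the 19 and 13.9% of the 4390 were higher by at least 1, and 3 of the 19 and 4.78% of the 4390 were lower. With library totals alone, which moved the median of all genes by -0.28 in HGC27 and by -0.18 in MKN45, 2 were higher and 3 lower in HGC27, and with quantile normalization 1 was higher and 3 lower there.

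Of the 26 genes measured in both lines, 10 were higher after treatment in both and 6 were lower in both, counting a direction only where the 95% counting interval of the log2 ratio left out 0. Another 5 were higher in HGC27 and lower in MKN45 (KEAP1, NQO1, TALDO1, TKT and ABHD4), and 2, MGST1 and SRXN1, were the reverse. For EPHX1 and GCLC in HGC27 and HMOX1 in MKN45 the interval held 0. With many reads a very small difference clears this interval, as for NFE2L2 in HGC27 at a log2 ratio of 0.062. Over all measured genes 6548 of 11821 were above 0 in HGC27 and 6364 of 11895 in MKN45, without regard to the interval. How many of all genes went the same or opposite ways was not counted, so these counts have no background. The 10 hold 3 of the regulators (NFE2L2, BACH1 and MAFG), 4 of the thioredoxin group, GSR, GSTP1 and UGDH. Of these, NFE2L2 and GSR turned below 0 in HGC27 and GSTP1 and PRDX1 in MKN45 with library totals alone, and with quantile normalization NFE2L2 and GSR did in HGC27 and GSR and UGDH in MKN45. The 6 lower in both were CBR1, GCLM, ME1, PGD, PIR and TRIM16. TXNRD1 differed by at least 1 in log2(FPKM + 1) in the same direction in both lines. By the plain ratio of FPKM, PIR did too, with treated to vehicle ratios of 0.436 in HGC27 and 0.333 in MKN45.

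**Figure D3:**
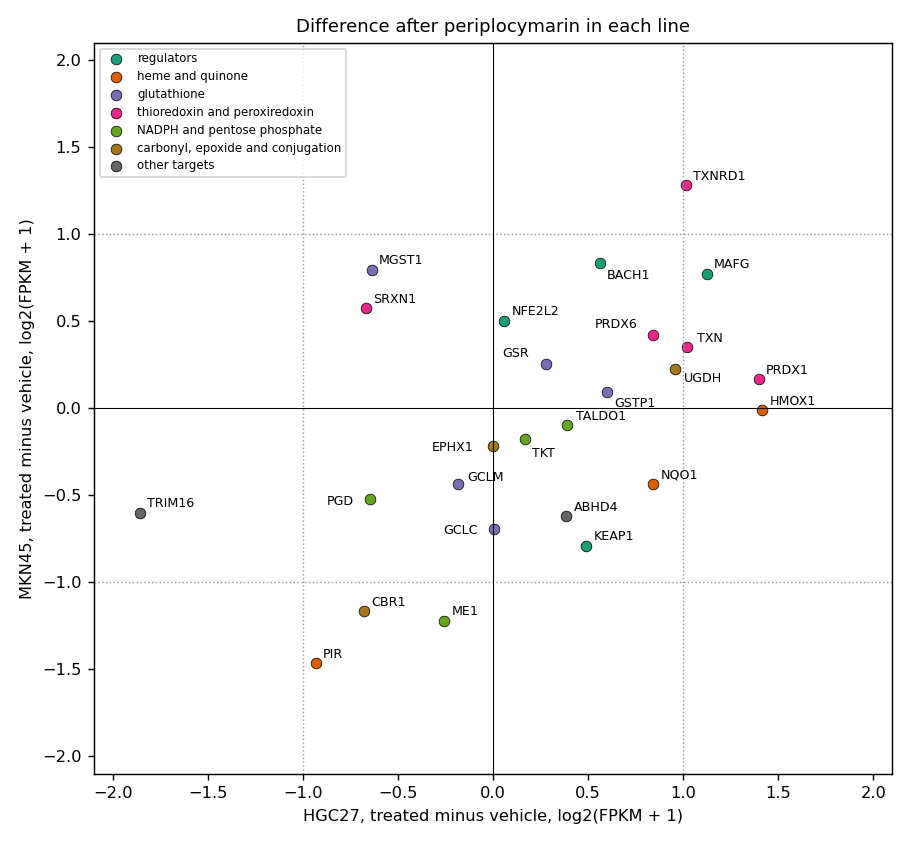
Treated minus vehicle difference on the log2(FPKM + 1) scale in HGC27 (x axis) and MKN45 (y axis) for the 26 genes measured in both lines, 1 point per gene coloured by role, with dotted lines at a difference of 1. TXNRD1 lies beyond 1 on both axes, TRIM16 is farthest left at -1.86, and PIR is lowest at -1.47.

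More of these genes passed between the lines than after treatment. The same held over all tested genes, where 35.9% passed between lines and 6.61% after treatment, in either direction. In the same fit, with treatment as the other term, 14 of the 30 tested genes were higher in MKN45 and 3 in HGC27 (limma, adjusted p under 0.05), while 13 did not pass. Over all 12353 genes 19.6% were higher in MKN45 and 16.3% in HGC27. The 14 include AKR1B10, AKR1C1, AKR1C2 and AKR1C3, which reached the mean of 1 FPKM through the MKN45 libraries alone. The median fitted HGC27 minus MKN45 difference was -0.64 over the 30 genes and -0.033 over all tested genes. The first of these medians includes the AKR1 genes too. Each line has 2 libraries that differ in treatment, and treatment is itself a term of the fit. The 1 residual degree of freedom is how far the treatment difference varies between the lines. These p-values rest on that and on 8.53 prior degrees of freedom from other genes, and do not measure the spread between cultures.

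The widest gaps on the MKN45 side were those of AKR1C3, MGST1, AKR1B10, AKR1C1, AKR1C2 and UGDH. MGST1 differed by -3.05 ± 0.36 (limma moderated SE, adjusted p = 0.000169). The fitted difference of AKR1C3 was -3.15, with no weight put on its p-value for the reason given below. In the vehicle libraries MGST1 was 6.15-fold and UGDH 5.53-fold higher in MKN45. The folds of the AKR1 genes rest on few or no reads in HGC27. Because these genes entered the test through MKN45 alone, their line calls were nearly fixed by the filter and carry little weight. PIR was 4.03-fold, NQO1 3.56-fold, GSTP1 3.19-fold, TKT 2.86-fold and GCLC 2.71-fold higher in vehicle MKN45, and TALDO1, TXNRD1 and SRXN1 also passed. TALDO1 did not pass with library totals alone. When genes of any level were tested, 3 were higher in MKN45 and 1 in HGC27.

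The 3 genes higher in HGC27 were KEAP1, EPHX1 and HMOX1. KEAP1, at 34.3 and 48.5 FPKM in HGC27 against 11.6 and 6.31 FPKM in MKN45, differed by 2.12 ± 0.34 (limma moderated SE, adjusted p = 0.00117). In vehicle it was 2.94-fold higher in HGC27. EPHX1 differed by 1.78 ± 0.28 and HMOX1 by 1.61 ± 0.38 (limma moderated SE, adjusted p = 0.00101 and 0.00833). NFE2L2 itself was close between the vehicle libraries, at 12.4 and 11.7 FPKM, and its line difference of -0.15 ± 0.29 did not pass, nor did those of BACH1 and MAFG.

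**Figure D4:**
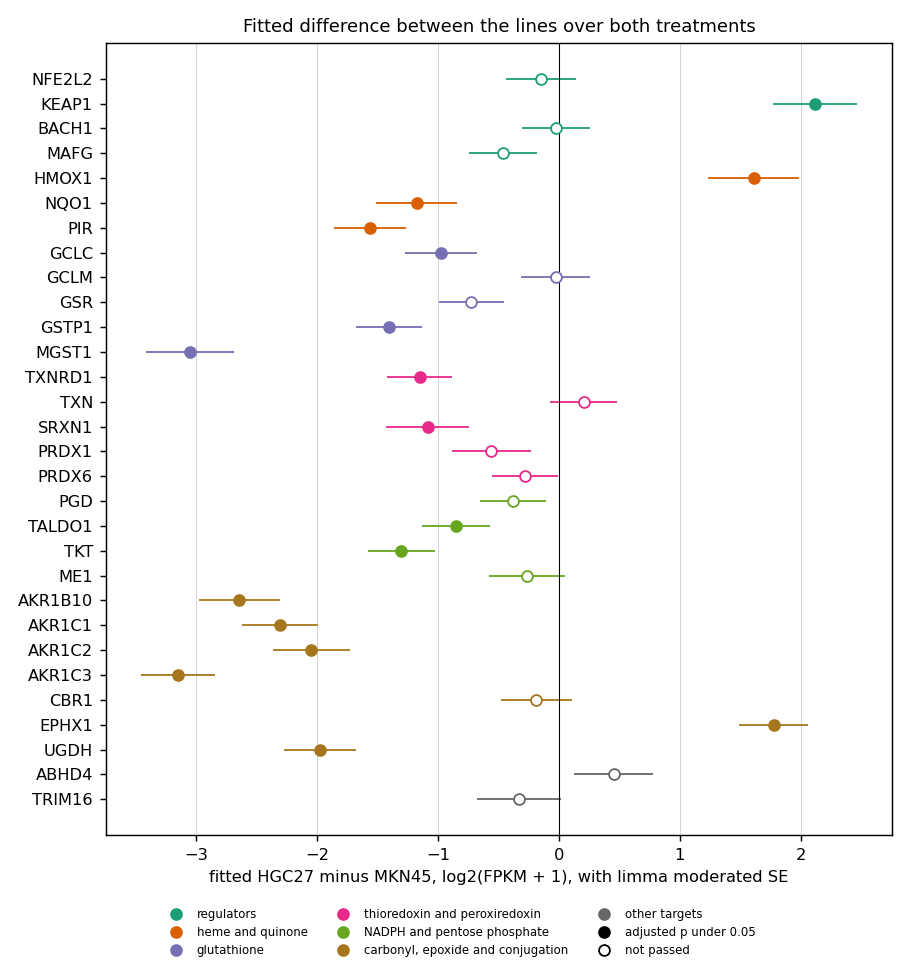
Fitted HGC27 minus MKN45 difference on the log2(FPKM + 1) scale (x axis) for the 30 tested genes (y axis), coloured by role; points are limma coefficients over both treatments, bars are moderated standard errors, and filled points passed at an adjusted p under 0.05. The 3 filled points above 0 are KEAP1, HMOX1 and EPHX1, and the 14 below 0 include MGST1 at -3.05. Also among the 14 are AKR1B10, AKR1C1, AKR1C2 and AKR1C3, which entered the test through MKN45 alone.

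The order of levels was similar at the top in the 4 libraries. PRDX1, TXN, GSTP1, PRDX6 and NQO1 held the first 5 places in both HGC27 libraries and in vehicle MKN45. In treated MKN45 TXNRD1 ranked above NQO1 and PRDX6, at 158 FPKM against 153 and 126 FPKM. With 1 library each, neighbours in this order cannot be told apart beyond counting error. The order also depends on the gene lengths behind the values. That of TKT was 9502 bases against 3010 in its longest coding transcript, while for NQO1 they were 2971 and 2912.

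Beyond these 31 genes, 67 other genes of the NRF2 pathway and of redox defence were listed, of which 61 could be tested. After treatment 2 of the 61 rose and 5 fell, with a median fitted difference of -0.20, against 3.43% and 3.17% of all genes, so the rises are near the background. The 5 that fell cannot be read as an excess, because the list was made with earlier results of these data known. Their number also depended on the processing. CUL3, the scaffold of the ligase that KEAP1 serves, was at 4.16 and 18.9 FPKM for the HGC27 pair and 6.24 and 13.9 FPKM for MKN45, and rose by 1.49 ± 0.32 (limma moderated SE, adjusted p = 0.0321). TXNIP, which binds and inhibits thioredoxin, was at 111 and 208 FPKM for the HGC27 pair and 32.2 and 170 FPKM for MKN45, and rose by 1.63 ± 0.35. TXNIP thus rose together with the reductase TXNRD1.

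The 5 that fell were IDH1, CBR4, TXNRD3, SESN2 and GSTA4. IDH1, a cytosolic source of NADPH, was at 59.8 and 7.15 FPKM for the HGC27 pair and 87.3 and 15.3 FPKM for MKN45, with the largest fitted decrease of the 61 genes, -2.67 ± 0.28 (limma moderated SE, adjusted p = 0.00540). CBR4, another carbonyl reductase, was at 9.88 and 1.40 FPKM for the HGC27 pair and 14.2 and 4.57 FPKM for MKN45. TXNRD3, a thioredoxin reductase related to TXNRD1, went the other way from it, at 3.57 and 0.236 FPKM for the HGC27 pair and 3.60 and 1.11 FPKM for MKN45. SESN2, a sestrin, was at 15.0 and 4.75 FPKM for the HGC27 pair and 22.7 and 9.18 FPKM for MKN45, and GSTA4, an alpha-class glutathione transferase, at 18.7 and 6.08 FPKM and at 1.94 and 0.419 FPKM. With quantile normalization TXNIP, TXNRD3 and GSTA4 no longer passed (limma adjusted p = 0.0648, 0.0559 and 0.0543), while CUL3, IDH1, CBR4 and SESN2 did. None of the 7 passed when genes of any level were tested or without the cell line term, nor did any other gene in those settings.

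Between lines, 20 of these 61 genes were higher in MKN45 and 6 in HGC27 (limma, adjusted p under 0.05), with a median of -0.39, against 19.6% and 16.3% of all genes. Of the 20, MAFF, GPX2, ABCC3, GSTM4, UGT1A6, PTGR1 and ME3 reached the mean of 1 FPKM through MKN45 alone. Of the 6, SESN3 reached it through HGC27 alone. The line calls of these genes were nearly fixed by that filter.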

How the data were processed

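Poly(A) RNA libraries from 4 samples were analysed from 1 deposited table of 62710 Ensembl genes, of which 62639 were given symbols by gene ID. Groups follow the sample titles. The authors deposited FPKM, a unit inferred here from the numbers because the header gives none. Tools listed without role or order are HISAT2 2.1.0 and fastp 2.0, with hg38 as the build, per the submitters' processing notes. Which counter, annotation and strand setting were used is not given in the sources used here.

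Low values lie on a ladder whose step is worth 1 read, which gave counts from the deposited FPKM. Within 0.0001 of a whole read, 15204 of 30457 genes with a value were whole at their GENCODE 29 exon length (49.9%). Otherwise the shortest length giving whole reads was used, or its multiple within 10% of the annotated length, since reads that share a factor fit both. This covered all 20299 genes above 0 in at least 3 libraries. AKR1B10 had no such length and no reads are given for it. Recovered reads served for depth, the read minimum, counting intervals and limma-voom. Clopper-Pearson 95% intervals and the limit of 3 reads cover counting error only.

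limma 3.58.1 (R 4.3.3) was fitted to log2(FPKM + 1) of all 4 libraries with cell line and treatment as terms (limma-trend), and calls were made at a Benjamini-Hochberg adjusted p under 0.05, for genes whose mean reached 1 FPKM and 10 reads. Vehicle and treated libraries are paired by cell line. The fit was also run on simulated data in which changed genes moved alike in both lines. It therefore does not show how the calls behave where the lines respond differently. The genes and lists were chosen with earlier results of these data known. Every one of the 31 genes is given, and of the 67 further genes those that passed or differed by 1 in both lines. Shared sequence was counted in 50-base windows of the longest coding transcript against GENCODE 29 transcripts on both strands. Alternatives were quantile normalization, library totals, other floors, a pseudocount of 0.1, limma-voom and no cell line term.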

Additional observations from a re-analysis of the deposited data

Results flagged for a closer look

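In 7 genes the treated library was higher in one line and lower in the other, each by more than its 95% counting interval. The share of all genes with such opposite directions was not counted. The difference between the lines was not tested, because 4 libraries leave no degree of freedom for it. KEAP1 differed by 0.49 in HGC27 and by -0.79 in MKN45 (log2, treated minus vehicle). NQO1 differed by 0.84 and -0.43, and ABHD4 by 0.39 and -0.62. TALDO1 differed by 0.39 and -0.098, and TKT by 0.17 and -0.17, both small. MGST1, at -0.64 in HGC27 and 0.80 in MKN45, and SRXN1, at -0.67 and 0.57, went the other way. With quantile normalization the HGC27 differences of KEAP1, TALDO1 and TKT turned below 0, and with library totals alone that of TKT did.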

How the results depend on the processing

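Under the treatment test 1 gene rose and 1 fell. With quantile normalization 0 rose and 4 fell, with library totals alone 1 rose and 5 fell, with a floor of 10 FPKM 3 rose and 1 fell, with limma-voom 2 rose and 2 fell, and with a pseudocount of 0.1 1 rose and 2 fell. With no low-value filter 0 rose and 0 fell (limma, 7 at an unadjusted p under 0.05), and without the replicate block for cell line 0 rose and 0 fell (0 unadjusted). Between lines, 3 genes were higher in HGC27 and 14 in MKN45, and with no low-value filter these were 1 and 3, while the other alternatives gave 2 or 3 and 10 to 15. In HGC27, 5 genes were higher and 1 lower by at least 1 in log2(FPKM + 1). By the plain FPKM ratio, an alternative chosen after seeing the data, 6 were at least 2-fold higher and 2 lower. These were 1 and 3 with quantile normalization and 2 and 3 with library totals alone, 2 were lower with a pseudocount of 0.1, and 0 were lower with a floor of 10 FPKM. In MKN45 the 1 higher became 0 with quantile normalization and the 3 lower stayed 3. Of the 61 other pathway genes 2 rose and 5 fell, against 1 rising with quantile normalization, 13 falling with library totals alone, 4 rising with a floor of 10 FPKM, 9 falling with a pseudocount of 0.1, 4 rising and 10 falling with limma-voom, and 0 and 0 with no low-value filter or without the replicate block. Between lines 6 and 20 became 2 and 6 with no low-value filter. Over all genes, 424 rose and 392 fell (52.0% upward), against 369 and 1181 with library totals alone (23.8%), 231 and 389 with quantile normalization (37.3%), 1049 and 199 with a floor of 10 FPKM (84.1%), 750 and 730 with a pseudocount of 0.1 and 892 and 688 with limma-voom. With no low-value filter 0 of 32364 genes passed after treatment, and without the replicate block 0 of 12353, so those settings do not single out any gene. The cause of these shifts was not tested. Leaving out a line leaves 1 library per arm and no test, and the difference in the other line is then the value given for that line.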
